A study of Harpegnathos saltator with 37 samples.

Results

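In the ant Harpegnathos saltator, 86 of the 14001 genes measured in the central brain were higher in mature egg-laying workers than in hunting workers at day 120, by a rule applied to 1 sequencing run. Each had a mean of at least 3 FPKM in the 5 gamergate libraries of run 4, at least 1.4 times the mean of the 5 hunting worker libraries of that run, and all 5 gamergates above the median hunter. FPKM counts sequenced fragments relative to gene length and library size, so levels can be compared between genes. Because those 10 libraries chose the genes, their values are given as a description without a test, and the comparisons that can be tested are those in the other 27 libraries. The rule also left out ILP-2 and Vgn by name.

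The libraries came from the dissected central brain without the optic lobes, the gnathal ganglion and most of the antennal lobes. Callow females 5 days old were placed with males in nests that had no queen, and days count from that isolation. The groups were 5 gamergates at day 120 in run 4 and 5 hunting workers of the same day and run, 1 further day 120 gamergate and 4 hunting workers in run 1, 5 gamergates and 4 workers at day 20, 5 duelers and 4 workers at day 10, and 4 late pupae. Mature oocytes marked the day 120 gamergates, and scored behaviour marked the hunters. The labels give neither the nest of each ant nor the number of brains in a library, so p-values measure the spread among these libraries. Both groups of a given age shared a run, except that day 120 had 2 runs, and age or stage changed together with the run and cannot be told apart from it. In hunters, the task cannot be told apart from age either.

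A gamergate is a worker that wins dominance duels, mates and takes over egg laying in a colony that has lost its queen, while hunters forage outside the nest. In insects, lipids travel between tissues in lipophorin particles, trehalose is the main blood sugar, and both serve oogenesis and the brain. The Notch pathway and the giant cadherins, laminins and spectraplakins that several of the chosen genes encode are best known from Drosophila development, where they shape epithelia, axons and synapses. Roles given here are those known from Drosophila or from insects at large.

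Transcripts of neurons and glia were detected in every library, and so were some known from other tissues. The synaptic gene brp ranged from 17.3 to 64.6 FPKM and the glial factor repo from 23.4 to 54.1 FPKM. The glial gene Gs2 varied more, from 7.19 to 665 FPKM. The odorant co-receptor Orco stayed at or below 0.0839 FPKM. The photoreceptor gene Arr2 ranged from 2.59 to 826 FPKM with a median of 255 FPKM, and the muscle gene Mhc from 0.582 to 80.6 FPKM. The part of other tissues in the libraries was not tested. Recovered totals ran from 9.2 to 55.78 M reads a library.

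The rule found genes with small differences between gamergates and hunters. The median ratio of the 86 was 1.51, 58 had a ratio under 1.6 and 9 had a ratio of at least 2. All 5 gamergates were above all 5 hunters for 30 of them, where 1.83% of the 9986 genes tested showed such a separation, and the rule itself favours it. Over all genes limma called 0 in either direction in this run (0.0%), with 322 higher and 357 lower at an unadjusted p under 0.05. With the groups exchanged, the same rule found 121 genes higher in hunters.

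The edge of the rule ran through a dense part of the distribution. Just inside stood FucTC with a ratio of 1.403, bmm with 1.406 and LOC109504684 with 1.414, and just outside stood mv, bchs and Vang, each with 1.399. Hunter replicate 7 was the lowest of its group for 64 of the 86 genes, and the list depended on which libraries entered. Without that library the rule chose 55 genes, of which 41 were among the 86, without hunter replicate 5 it chose 133, and without hunter replicate 6 it chose 170.

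Of the 86 genes, 29 have a symbol in the reference and 57 only a LOC number, for which no function is given here. The reference lists 72 as protein coding, 9 as lncRNA and 5 as pseudogenes, so 16.3% were lncRNA or pseudogenes, against 6.71% of the genes tested. By symbol, 16 of the genes stood on at least 1 of 32 lists, 20 lists held none of them, and none held more than 3. In a bulk library fewer cells of a type and less RNA per cell cannot be told apart, for these genes as for any other.

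The lists of lipid metabolism and of transcription factors held most of the genes, 3 each. Apolipophorin (apolpp), the protein of the lipophorin particle, had 449, 399, 374, 537 and 556 FPKM in the run 4 gamergates, against 371, 285, 163, 308 and 287 FPKM in the hunters of that run. The lowest gamergate was above the highest hunter, and the means were 463 ± 81.1 FPKM and 283 ± 75.4 FPKM (SD, n = 5 each). The lipoprotein receptor megalin (mgl) had 16.9, 19.1, 16.3, 16.5 and 22.9 FPKM in gamergates, against 16.9, 12.4, 6.21, 12.0 and 12.2 FPKM in hunters, where hunter replicate 5 reached the gamergate range. The triglyceride lipase brummer (bmm) had 2.62 to 4.32 FPKM in gamergates and 1.6 to 2.81 FPKM in hunters, and its groups overlapped. In the whole list of 71 lipid genes, 42 had a difference above 0 in this run, where 48.3% of all genes did. The median log2 difference of the list was 0.02, against -0.01 over all genes.

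Genes of sugar and purine synthesis owed their place to a few libraries. Trehalose-6-phosphate synthase (Tps1) had 9.81, 4.93, 5.03, 18.1 and 6.55 FPKM in the run 4 gamergates, against 5.37, 3.1, 6.47, 4.74 and 3.65 FPKM in hunters. Paics, an enzyme of purine synthesis, had 17.3, 7.82, 7.98, 33.5 and 11.2 FPKM in gamergates, against 13.1, 4.08, 6.04, 7.38 and 6.73 FPKM in hunters. The cytochrome P450 gene Cyp304a1 had 6.69, 2.67, 2.99, 6.96 and 3.59 FPKM in gamergates, against 4.72, 2.33, 2.64, 2.39 and 2.67 FPKM in hunters. In all 3 genes gamergate replicates 2 and 5 were the highest and replicates 3 and 4 lay among the hunters.

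A pair of genes known only by LOC numbers were also carried by single libraries. LOC105189919 had the largest ratio, 505, with 159, 0.106, 0.209, 6.34 and 0.146 FPKM in the run 4 gamergates, against at most 0.199 FPKM in hunters of the run. It was high in replicate 2 and to a lesser degree in replicate 5, and replicates 3 and 6 overlapped the hunters, with replicate 4 just above the highest of them. LOC105180621, with a ratio of 6.83, had 31.5, 3.79, 5.17, 47.3 and 18.6 FPKM in gamergates, against 9.68, 0.605, 1.19, 2.23 and 1.89 FPKM in hunters, and there too replicates 2 and 5 led.

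The fat body is a tissue outside the brain. Of 16 tested genes on the list of fat body and yolk, 13 had a difference above 0 in run 4. Over all genes 48.3% did, and the median log2 differences were 0.15 for the list and -0.01 for all genes. In run 1, 6 of the 16 had a difference above 0, against 49.4% of all genes, with a median of -0.07. Single genes of the list did not all move alike. The storage protein gene Hex70a had 14.1, 0, 7.3, 46.7 and 22.5 FPKM in gamergate replicates 2 to 6 of run 4, and at most 3.02 FPKM in the hunters of the run. The gene fat-spondin had 13.4, 2.82, 3.22, 20.5 and 5.95 FPKM in the same gamergates, against 4.91, 2.37, 7.74, 2.98 and 2.58 FPKM in hunters. Idgf4 had 57.8 to 70.9 FPKM in gamergates and 52.8 to 129 FPKM in hunters, Vhdl had 34.0 to 50.9 FPKM and 29.1 to 49.0 FPKM, and Hex110 was highest in a hunter, at 3.99 FPKM. Hex70a and fat-spondin were highest in gamergate replicate 5, and the groups overlapped for all 5 of these genes. The summed level of 20 listed fat body and yolk genes was 3160 to 6460 FPKM in gamergates and 2090 to 4120 FPKM in hunters. Without Vgn and apolpp, the other 18 summed to 2510 to 3170 FPKM in gamergates and 1800 to 3530 FPKM in hunters, and 2 of these 18 were at 0 in all 5 gamergates. Most of that sum was Tsf1, with 2300 to 2990 FPKM in gamergates and 1650 to 3320 FPKM in hunters. The part of such transcripts in the levels of Tps1, Paics, apolpp and the LOC genes was not tested.

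Notch signalling was represented by 2 of the genes. The receptor Notch (N) had 7.15, 6.09, 5.88, 5.22 and 7.46 FPKM in the run 4 gamergates, against 5.05, 5.47, 2.61, 3.75 and 4.13 FPKM in hunters, and the groups overlapped in a single library of each. Its nuclear coactivator mastermind (mam) had 3.7 to 5.7 FPKM in gamergates and 2.23 to 3.9 FPKM in hunters. LOC109504154, without a name, followed N over the 37 libraries with a Pearson correlation of 0.976 on the log2 scale. That value is a description, since all genes of a library share its depth and RNA quality.

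Transcription factors and RNA regulators on the list were of low to moderate level. The ratio was 1.57 for Poxn, a paired box factor of sensory organs, 1.51 for scalloped, the partner of the Hippo effector Yorkie, and 1.42 for zfh2, a zinc finger homeodomain factor. All 5 gamergates were above all 5 hunters for scalloped, with 2.81 to 3.4 FPKM in gamergates and 1.57 to 2.61 FPKM in hunters, and for zfh2, with 7.9 to 10.9 FPKM in gamergates and 4.85 to 7.66 FPKM in hunters. The translational repressor brat had 21.8, 17.3, 15.5, 18.2 and 16.1 FPKM in gamergates, and its ratio was 1.44. Of 129 listed transcription factors tested, 82 had a difference above 0 in this run, where 48.3% of all genes did. Their median was 0.04, against -0.01 over all genes.

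Several genes of adhesion and the cytoskeleton are grouped here after their values were seen, and most of them stood on no list of these roles. The atypical cadherin kug had 9.6, 7.95, 6.96, 8.24 and 10.3 FPKM in the run 4 gamergates, against 6.03, 7.99, 1.98, 6.17 and 6.03 FPKM in hunters. The junction scaffold pyd (ZO-1) had 6.83, 5.93, 5.21, 7.05 and 6.22 FPKM in gamergates, against 3.24, 4.16, 2.19, 5.19 and 3.94 FPKM in hunters, without overlap. The spectraplakin shot, which links actin to microtubules, had 41.7, 33.1, 30.3, 35.8 and 45.5 FPKM in gamergates, against 26.2, 33.2, 8.8, 24.6 and 23.6 FPKM in hunters. For kug and shot a single hunter, replicate 6, reached into the gamergate range. Further ratios were 1.48 for the laminin subunit wb, 1.43 for the receptor phosphatase Ptp36E, 1.42 for the nesprin Msp300 and 1.53 for the Patched-related gene Ptr. Of 62 tested genes on the list of axon guidance and adhesion, which holds kug, 57 had a difference above 0 in this run, where 48.3% of all genes did. Their median log2 difference was 0.16, against -0.01 over all genes. By gene length, tested genes of at least 3 FPKM had a median of 0.13 in the longest 25% and -0.13 in the shortest 25%. In run 1, which did not choose the genes, 52 of the 62 had a difference above 0, with a median of 0.26. The longest 25% had a median of 0.17 there. The part of gene length in the values of this list was not tested.

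Signalling and neuronal genes included the catalytic subunit of protein kinase A (Pka-C1), a kinase needed for memory in insects. It had 257, 180, 192, 186 and 217 FPKM in the run 4 gamergates, against 121, 260, 81.4, 129 and 135 FPKM in hunters, and hunter replicate 6 was above every gamergate. The mechanotransduction channel nompC had 4.6, 5.21, 5.14, 8.88 and 6.32 FPKM in gamergates, against 3.42, 2.98, 2.1, 3.73 and 5.62 FPKM in hunters. The acetylcholinesterase gene AChE-2 had 11.5 to 20.9 FPKM in gamergates and 7.48 to 16.1 FPKM in hunters. E23, an ABC transporter induced by ecdysone in Drosophila, had 4.17 to 6.3 FPKM in gamergates and 2.6 to 4.68 FPKM in hunters. In these last 3 the groups overlapped.

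Other genes with a symbol were cue, a receptor-like membrane protein, with a ratio of 1.68, the proprotein convertase Fur2 with 1.42, the F-box gene Ppa with 1.45, the nuclease DNaseII with 1.45 and the fucosyltransferase FucTC, named above. Of all 29 genes with a symbol, 8 had every gamergate above every hunter, a separation that the rule itself favours. It held for 35.3% of the chosen genes tested and for 1.83% of all genes tested.

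**Figure D1:**
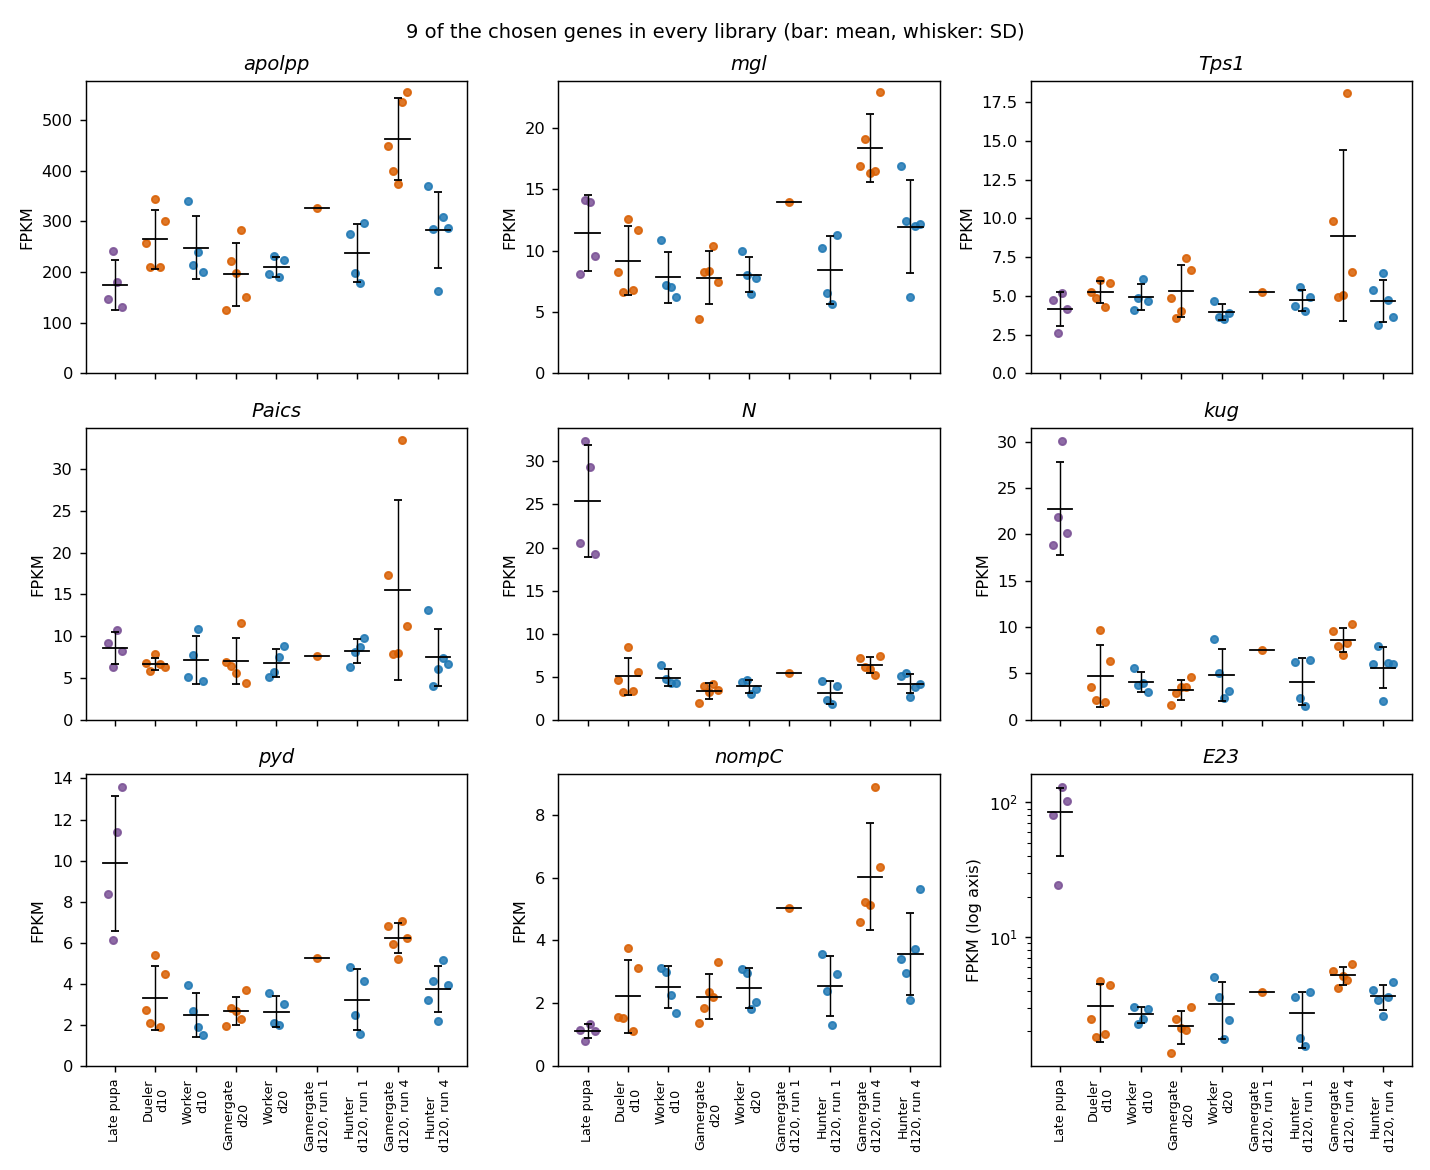
FPKM of 9 of the chosen genes in every library, by group and sequencing run; each point is a library, the bar is the mean and the whisker is the SD, and the axis of E23 is logarithmic. Tps1 and Paics are high in a few run 4 gamergates, apolpp is high in all 5, and N, kug, pyd and E23 are highest in late pupae.

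Run 1 held libraries that the rule had not used, 1 gamergate and 4 hunters at day 120. Most of the genes were higher in that gamergate than in the mean of the hunters. Of the 85 genes tested, 77 (90.6%) had a log2 difference above 0, against 49.4% of all genes, and the median was 0.50, against -0.01. The gamergate was above all 4 hunters for 36 of them (42.4%), where 19.0% of all genes were, and below all 4 for 1, where 21.7% of all genes were. No single gene was called by limma (0 of 85, with 0.02% of all genes called), 7 were higher and 0 lower at an unadjusted p under 0.05 (1.58% and 1.51% of all genes), and voom on recovered reads also called 0. With a single gamergate, its spread was assumed to equal that of the other groups. By the median log2 deviation of the 85 genes from the mean of all libraries, the gamergate lay at 0.18. Hunter replicates 1 and 4 were close to it, each at 0.06, and replicates 2 and 3 far below, at -0.53 and -0.91. The genes varied together, so their counts are not separate evidence.

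Among the 29 genes with a symbol, the run 1 gamergate was above all 4 hunters for 18, and the difference was above 0 for 27. The receptor-like gene cue had 4.1 FPKM in the gamergate, against 2.58, 2.5, 1.09 and 2.12 FPKM in the hunters, a log2 difference of 0.88 ± 0.33 (SE, adjusted p = 0.9 by limma). The channel nompC had 5.04 FPKM, against 3.57, 2.4, 1.3 and 2.92 FPKM in hunters (0.92 ± 0.45, adjusted p = 0.9). Ptr had 8.79 FPKM, against 6.53, 4.39, 3.68 and 5.67 FPKM in hunters (0.77 ± 0.34, adjusted p = 0.9).

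Of the genes of the Notch and lipid groups, N had 5.49 FPKM in the run 1 gamergate, against 4.51, 2.33, 1.82 and 3.98 FPKM in hunters, and apolpp had 327 FPKM, against 275, 199, 178 and 296 FPKM. In both the gamergate was the highest library, by a margin smaller than the range among hunters. The genes carried by gamergate replicates 2 and 5 in run 4 did not stand out here. Paics had 7.62 FPKM in the gamergate, against 6.37, 8.14, 8.68 and 9.73 FPKM in hunters, and Tps1 had 5.24 FPKM, against 4.31, 5.58, 4.0 and 4.93 FPKM.

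LOC105189919 was an exception among those genes. It had 73.8 FPKM in the run 1 gamergate and 0 to 0.252 FPKM in its hunters, and it stayed at or below 0.272 FPKM in every library outside day 120 gamergates. It was above 1 FPKM in only 3 of the 37 libraries, all of them day 120 gamergates, and so did not pass the filter on low values. Since it ranged from 0.106 to 159 FPKM among the run 4 gamergates, the single run 1 library gives no measure of gamergates as a group.

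**Figure D2:**
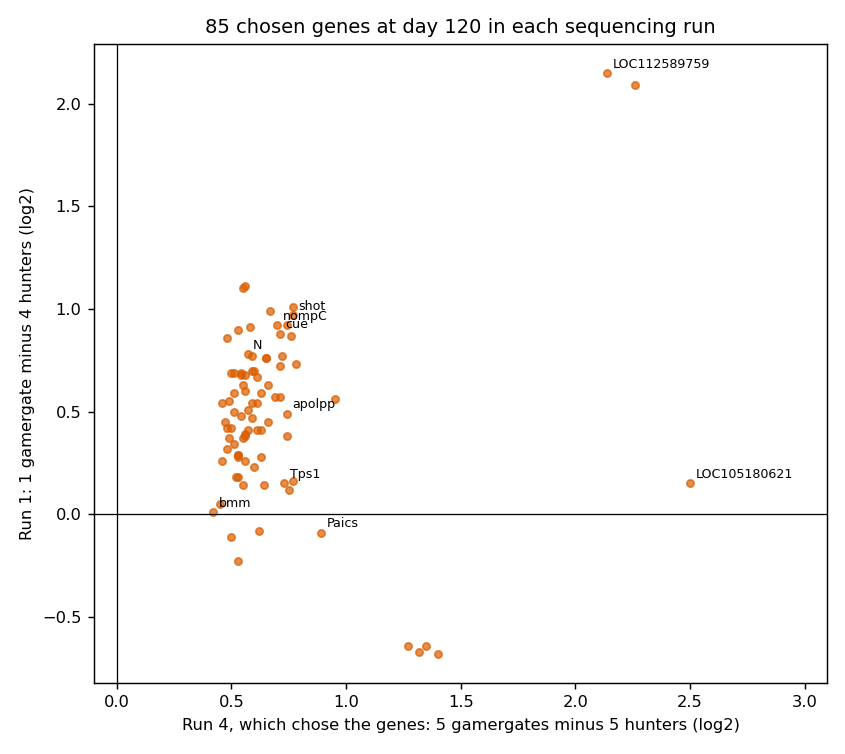
Log2 difference at day 120 for the 85 chosen genes tested, in run 4, which chose them (5 gamergates minus 5 hunters, horizontal), and in run 1 (1 gamergate minus 4 hunters, vertical); each point is a gene. In run 1, 77 points lie above 0 and 8 below, among them Paics and, at the bottom, a set of 4 closely correlated genes.

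At day 10 the genes did not separate duelers from workers. Of 85, 34 (40.0%) had a difference above 0, against 48.7% of all genes, and the median log2 difference was -0.03, against -0.01. Limma called 0 of the 85, with 0.03% of all genes called in either direction, while 3 were higher and 2 lower at an unadjusted p under 0.05 (2.94% and 2.2% of all genes). For 0 of the 85 were all duelers above all workers (1.48% of all genes) or all below (1.02%). Leaving out 1 library moved the median between -0.20 and 0.09 and the count above 0 between 18 and 51, so that the sign rested on single libraries. TPM scaling gave 64 of 85 above 0, with a median of 0.23, against 0.24 over all genes.

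The day 10 libraries varied widely among themselves for the same genes. Dueler replicate 3 had 40.9 FPKM of shot, against 12.3, 8.05, 8.44 and 25.4 FPKM in the other duelers, and 22.6, 15.2, 16.9 and 10.8 FPKM in workers. It had 9.71 FPKM of kug, against 3.55, 2.11, 1.91 and 6.35 FPKM in the other duelers, and 5.58, 3.74, 3.93 and 3.01 FPKM in workers. For both genes the spread among duelers was wider than the distance between the groups.

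At day 20 the median of the genes lay below 0, by less than the SD of 0.30 among the libraries of a group. Of 85, 17 (20.0%) had a difference above 0, against 49.0% of all genes, and the median was -0.15, against 0.00. Limma called 0 of the 85, with 0.01% of all genes called, while 1 was higher and 1 lower at an unadjusted p under 0.05 (0.941% and 1.15% of all genes). Leaving out 1 library moved the median between -0.28 and -0.01 and the count above 0 between 8 and 41, and array weights gave 40 of 85. N had 1.9, 3.98, 3.17, 4.21 and 3.5 FPKM in day 20 gamergates, against 4.36, 4.65, 3.05 and 3.54 FPKM in workers, and apolpp had 124, 221, 198, 284 and 151 FPKM, against 196, 232, 191 and 223 FPKM. For neither gene did the groups separate.

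Cyp304a1 had a difference above 0 at both ages, without passing the adjusted threshold, and below 0 in run 1 of day 120. It had 2.5, 2.28, 3.36, 2.51 and 2.97 FPKM in duelers, against 1.69, 1.57, 2.48 and 1.61 FPKM in workers at day 10, a log2 difference of 0.47 ± 0.23 (adjusted p = 0.784 by limma). At day 20 it had 3.07, 2.14, 2.81, 5.21 and 1.87 FPKM in gamergates, against 1.84, 1.92, 1.77 and 1.94 FPKM in workers, a difference of 0.50 ± 0.23 (adjusted p = 1.0 by limma). In run 1 of day 120 it had 2.46 FPKM in the gamergate, against 2.31, 2.9, 3.27 and 2.41 FPKM in hunters, a difference of -0.11 ± 0.38 (adjusted p = 0.962 by limma). The difference between the caste differences at days 20 and 10 was called for 0 of the 85 genes, and 1 had an unadjusted p under 0.05. LOC105180621 had 9.06, 3.14, 1.04, 43.1 and 8.89 FPKM in day 20 gamergates, so that a single library there reached the level of the highest day 120 gamergates.

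**Figure D3:**
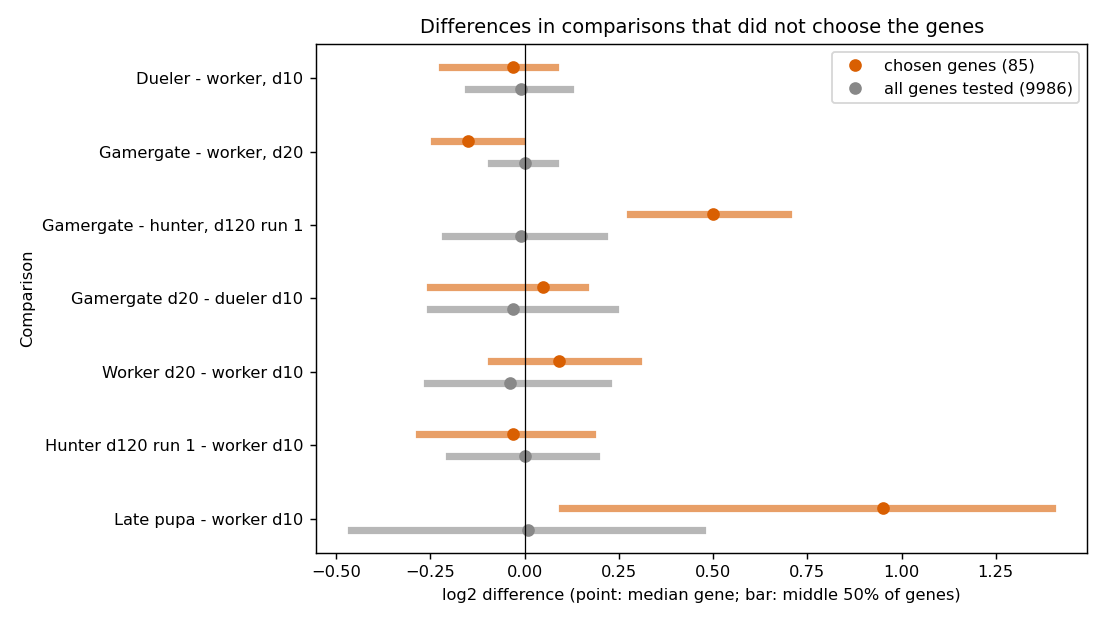
Log2 differences of the 85 chosen genes (orange) and of all 9986 genes tested (grey) in 7 comparisons that did not choose them; the point is the median gene and the bar spans the middle 50% of genes. The chosen genes stand apart from all genes in run 1 of day 120 (0.50 against -0.01) and in late pupae (0.95 against 0.01). At day 20 their middle 50% lies at -0.24 to -0.01, against -0.09 to 0.08 for all genes. In the other comparisons their medians lie close to those of all genes.

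Change with age was called for few of the genes. Between day 20 gamergates and day 10 duelers, 5 were higher and 1 lower, with 13.8% and 11.2% of all genes called in these directions. Between workers of day 20 and day 10, 6 were higher and 0 lower, with 11.6% and 9.11% of all genes called, and between run 1 hunters and day 10 workers, 5 were higher and 1 lower, with 5.92% and 4.96%. These counts depended on the setting: TPM scaling gave 5 higher and 0 lower, 10 and 0, and 11 and 0, in that order, and array weights gave 20 higher and 3 lower in the first. Over all 9986 genes the array weights also raised the number called in the first, 4355 against 2493, and TPM scaling called 1547, 2968 and 3944 in the same order. Of the genes called in these 3 comparisons, DNaseII, a nuclease of lysosomes, was the only one with a symbol. It had 1.76, 3.69, 2.94 and 3.82 FPKM in day 20 workers, against 1.53, 0.944, 1.18 and 1.34 FPKM in day 10 workers, without overlap, and rose by 0.99 on the log2 scale (adjusted p = 0.00834 by limma). Run 1 hunters had 3.03, 2.05, 3.69 and 4.68 FPKM of it, and were higher than day 10 workers by 1.11 (adjusted p = 0.00622 by limma).

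Of the chosen genes tested, a pair of closely correlated pseudogenes had the largest differences with age. LOC109504536 had 2410, 2180, 1570, 2080 and 2470 FPKM in day 20 gamergates, against 133, 107, 50.2, 382 and 158 FPKM in day 10 duelers, a log2 difference of 3.98 (adjusted p = 3.04e-08 by limma). In workers it had 2890, 1630, 3090 and 2430 FPKM at day 20, against 64.1, 174, 115 and 286 FPKM at day 10, a difference of 4.13 (adjusted p = 8.77e-08). No library of day 20 overlapped one of day 10. In run 4 at day 120 it had 1200, 1410, 1440, 1160 and 1990 FPKM in gamergates, against 927, 739, 668, 1040 and 996 FPKM in hunters, and of those only gamergate replicate 6 was above any day 20 worker. LOC112589760 followed it with a correlation of 0.996.

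LOC109504537, a pseudogene, and LOC112589759, listed as protein coding, formed a second closely correlated pair, with a correlation of 0.998. LOC112589759 had 277, 330, 295, 263 and 547 FPKM in run 4 gamergates, against 46.4, 33.0, 81.9, 77.3 and 236 FPKM in hunters, without overlap. In run 1 it had 177 FPKM in the gamergate, against 39.1, 66.4, 88.0 and 10.4 FPKM in hunters, a log2 difference of 2.15 ± 1.0 (adjusted p = 0.9 by limma). At day 20 it had 670, 385, 102, 403 and 468 FPKM in gamergates, against 632, 300, 780 and 577 FPKM in workers, so the castes overlapped there. At day 10 the direction was the other one, with 11.7, 91.3, 46.9, 9.66 and 34.9 FPKM in duelers, against 50.2, 62.8, 112 and 124 FPKM in workers, a difference of -1.52 ± 0.60 (adjusted p = 0.784).

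A set of 4 further genes moved as 1 across all libraries, LOC112588763, LOC112590050, LOC112590267 and LOC112589201, with pairwise correlations of 0.997 to 1.0. LOC112588763 had 2.77, 1.41, 7.01, 7.21 and 2.15 FPKM in run 4 gamergates, against 1.15, 0.0297, 3.47, 0.328 and 2.58 FPKM in hunters, where hunter replicate 6 was almost without it. In run 1 it had 1.81 FPKM in the gamergate, against 1.74, 1.71, 13.4 and 1.91 FPKM in hunters. Whether these 8 genes include close copies that share reads was not tested, since no sequences were used, so their levels are uncertain and those of a set are not separate evidence.

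Late pupae carried more of these transcripts than day 10 workers. Of 85 genes, 48 were higher (56.5%) and 7 lower (8.24%), while 30.4% of all genes were called higher and 26.5% lower, and the median log2 difference was 0.95, against 0.01 over all genes. For 46 of them every pupa was above every worker, which held for 25.5% of all genes. Of the 121 genes that the exchanged rule placed higher in hunters, 3 were higher in pupae and 84 lower, with a median of -1.11. Stage, sequencing run and adult age changed together here and cannot be told apart.

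Of the named genes, E23, N and kug were among those higher in pupae. E23 had 80.4, 24.4, 129 and 103 FPKM in pupae, against 3.04, 2.26, 2.49 and 2.93 FPKM in day 10 workers, a log2 difference of 4.51 ± 0.35 (adjusted p = 3.48e-12 by limma). N had 20.5, 32.4, 29.4 and 19.2 FPKM, against 6.39, 4.69, 4.25 and 4.23 FPKM (2.25 ± 0.26, adjusted p = 1.19e-08), and kug had 18.9, 21.9, 30.1 and 20.2 FPKM, against 5.58, 3.74, 3.93 and 3.01 FPKM (2.36 ± 0.42, adjusted p = 1.99e-05). In all 3 the lowest pupa was above the highest worker. In total 16 of the 29 genes with a symbol were higher in pupae, among them cue, pyd, shot, Ptr, kug, N, wb, Ppa, brat, Ptp36E, mam, E23, zfh2, Fur2 and Msp300. Among the LOC genes the largest increases were 2.92 for LOC112590308, 2.71 for LOC105187975 and 2.48 for LOC109504154.

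A smaller number were lower in pupae or did not pass the threshold. The channel nompC had 1.17, 0.815, 1.34 and 1.13 FPKM in pupae, against 3.13, 3.01, 2.26 and 1.7 FPKM in workers, a difference of -0.89 ± 0.28 (adjusted p = 0.00828 by limma). FucTC had 0.331, 0.966, 0.585 and 0.293 FPKM, against 6.61, 4.47, 3.95 and 2.93 FPKM (-2.25 ± 0.20, adjusted p = 5.98e-11), and Pka-C1 was lower by -0.95 ± 0.40 (adjusted p = 0.0411). LOC105180621 was at 0 in 3 pupae and at 0.0453 FPKM in the other one, against 10.3 ± 4.91 FPKM in workers (SD, n = 4). The lncRNA LOC105186944 differed by -3.06 ± 0.31 (adjusted p = 9.78e-10) and LOC105192254 by -3.30 ± 0.40 (adjusted p = 4.77e-08). The metabolic genes did not pass: apolpp differed by -0.52 ± 0.25 (adjusted p = 0.0747), mgl by 0.51 ± 0.26 (adjusted p = 0.0932) and Tps1 by -0.24 ± 0.27 (adjusted p = 0.447).

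The wider lists gave the setting for these values. Of 62 tested genes of axon guidance and adhesion, which include kug, 44 were higher (71.0%) and 1 lower (1.61%) in pupae, where 30.4% of all genes were higher and 26.5% lower. Of 71 lipid genes, 27 were higher (38%) and 16 lower (22.5%). Of 129 transcription factors, 48 were higher (37.2%) and 24 lower (18.6%), and of 87 kinases and phosphatases 40 were higher (46.0%) and 19 lower (21.8%). The shares of the lipid genes and transcription factors lay nearer to those of all genes than the share of the axon guidance and adhesion genes did. None of these lists had a gene called between castes in run 1, at day 10 or at day 20.

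**Figure D4:**
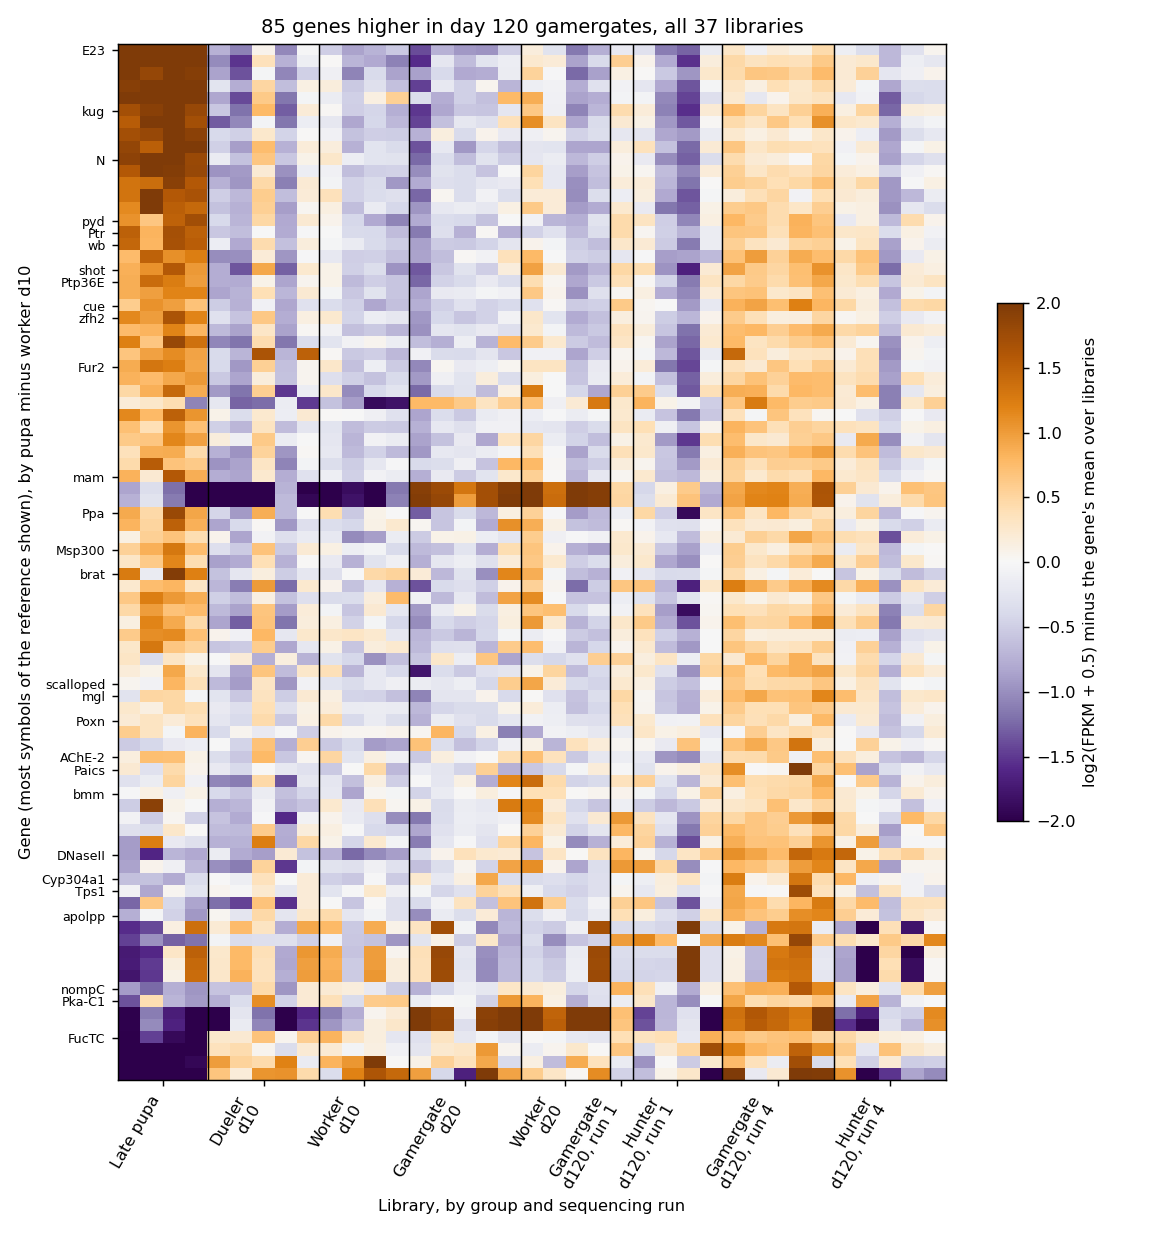
Log2(FPKM + 0.5) of the 85 chosen genes tested, each minus its mean over the 37 libraries, with libraries in columns by group and run and genes in rows ordered by the pupa difference. Late pupae and run 4 gamergates are the fullest in orange, the latter in part by the rule. Dueler replicate 3 and hunter replicates 3 and 7 stand apart from the rest of their groups over most rows. By the median of the genes, day 20 worker replicate 1 also lay above the others of its group, at 0.40 against -0.53 to -0.02.

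The genes varied together from library to library, also within groups. Each library was summarised by the median, over the 85 genes, of the log2 deviation from the mean of all libraries. The run 4 gamergates lay at 0.41 to 0.66, the run 4 hunters at -0.64 to 0.22, the run 1 gamergate at 0.18, the run 1 hunters at -0.91 to 0.06 and the pupae at 0.37 to 0.88. Day 10 duelers spread from -0.74 to 0.39 and day 10 workers from -0.49 to -0.01, day 20 gamergates from -0.74 to -0.03 and day 20 workers from -0.53 to 0.40. The highest dueler and the highest day 20 worker thus reached close to the lowest run 4 gamergate. By mean level the highest of the 9 groups by run was the late pupae for 43 genes and the run 4 gamergates for 32. The rule placed the run 4 gamergates above the run 4 hunters. Their library values and the count of 32 thus follow in part from the choice of genes. The shares over all genes were not computed.

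A property of the libraries that does not use these genes moved alongside in many libraries but not in all. Among the other tested genes of at least 3 FPKM, the median deviation of the longest 25% minus that of the shortest 25% was 0.22 to 0.43 in run 4 gamergates, -0.35 to 0.34 in run 4 hunters, 0.17 in the run 1 gamergate, -0.76 to 0.21 in run 1 hunters and 0.31 to 0.64 in pupae. It was -0.39 to 0.59 in duelers and -0.35 to 0.32 in workers of day 10, and -0.68 to 0.01 in gamergates and -0.64 to -0.10 in workers of day 20. Hunter replicates 3 and 7, low for the chosen genes, had -0.76 and -0.35, and dueler replicate 3, high for them, had 0.59. Other libraries did not go together in this way. Day 20 worker replicate 1, at 0.40 for the chosen genes, had -0.15, and day 10 worker replicate 1, at -0.01 for them, had 0.32.

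The genes themselves were not mainly long. Their median counted length was 5020 bases, against 4540 bases among 7617 tested genes of that level, and 31 of them fell in the longest 25% and 26 in the shortest 25%. In run 1, which did not choose them, the median log2 difference of the chosen genes was 0.41 in the shortest 25% and 0.68 in the longest 25%, against -0.19 and 0.17 over all genes of that level. With a trend on length removed from each library, a setting chosen after seeing the data, the run 1 median was 0.45 with 75 of 85 above 0, and the pupal median was 0.89. The parts of gene length and of RNA quality in the values were not tested.

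**Figure D5:**
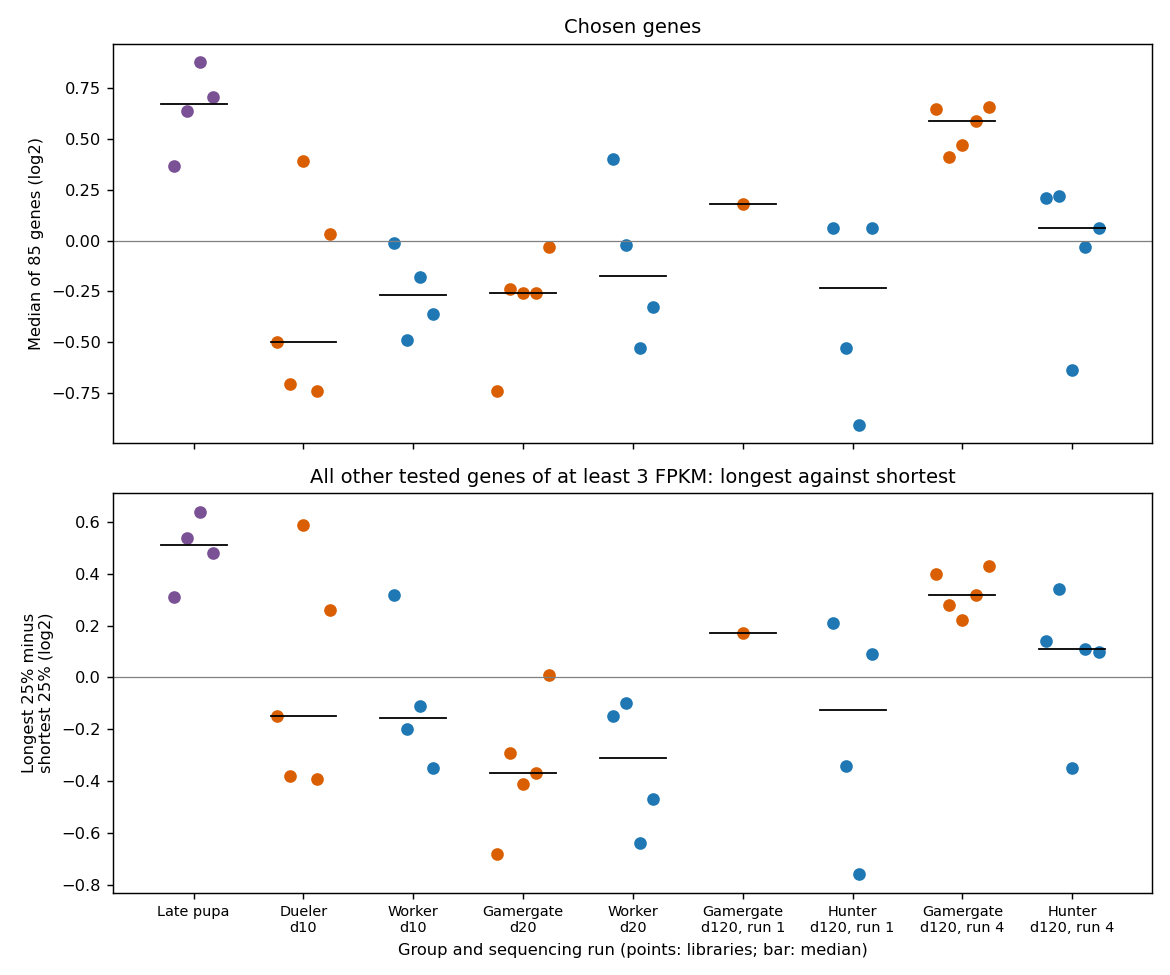
Median log2 deviation of the 85 chosen genes in each library (top) and, over all other tested genes of at least 3 FPKM, the median of the longest 25% minus that of the shortest 25% (bottom), by group and run; points are libraries and bars are medians. In both panels the run 4 gamergates and the pupae lie above 0, and the lowest libraries of the hunter groups are the same. The top values of the run 4 gamergates follow in part from the rule.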

How the data were processed

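RNA-seq of 37 central brain libraries was deposited by the authors as FPKM per gene for 14001 genes. The submitters' processing notes name bcl2fastq, STAR and featureCounts. Tool versions and build were not given in the sources used here, and coordinates are left out. Low FPKM values fell on steps of 1 read, and whole reads were recovered for 13445 of 13445 genes above 0 within 0.1 read. Recovered totals were 9.2 to 55.78 M reads, so the spread between libraries sets the precision.

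Genes with FPKM of at least 1 in at least 4 libraries (9986) were tested on the log2(FPKM + 0.5) scale by limma (3.58.1, R 4.3.3) in 1 fit with a mean for each of 9 groups by run. The fit held all 37 libraries, so the run 4 libraries that chose the genes also entered the shared estimate of spread behind each SE and p-value. The scale understates changes of low genes. Adjusted p-values are Benjamini-Hochberg, two-sided, over all genes tested, with 0.05 as the threshold. The run of a library is part of its label's internal reference. The fit was run on simulated data for the day 10, day 20 and pupal comparisons only, with noise drawn for each gene separately. Those data hold neither genes that vary together nor the comparison of run 1. Reference symbols came from RefSeq assembly Hsal_v8.6 (13989 identifiers matched, 12 did not), and the 32 lists hold symbols only.

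The chosen genes, the lists and the naming rule were set with earlier results of these data known. Named were the 10 largest ratios, up to 4 called genes per direction outside the caste comparisons, up to 4 genes per list, the 5 highest levels and 3 genes on each side of the ratio of 1.4. Symbols on no list (13) were named after their values were seen, and 1 gene is not reported here by name. Alternatives were pseudocounts of 0.1 and 1, other filters, TPM scaling, quantile normalization, array weights, a fit of only the groups compared, a replicate block, voom on recovered reads, removal of a length trend and leaving out each library.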

Additional observations from a re-analysis of the deposited data

Results flagged for a closer look

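In 245 groups of 4 or 5 libraries with a value of at least 1 FPKM, a single library lay far from the others in 18 (7.35%). Each group was 1 named gene in 1 group by run, with 1 member for each of the 3 sets of closely correlated LOC genes. Gaps were judged against Dixon's 95% critical value, by which chance gives about 1 in 20, and no cause was tested. That rate does not apply to the run 4 groups, whose values chose and ranked the genes. The share is therefore no evidence of an excess.

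In run 4 gamergates, LOC105189919 reached 159 FPKM in replicate 2, against at most 6.34 FPKM in the others, and LOC112589759 reached 547 FPKM in replicate 6, against at most 330 FPKM. LOC105182705 had 7.29 FPKM in replicate 2, against 5.56 to 5.73 FPKM, and the lncRNA LOC112589730 had 6.62 FPKM in replicate 3, against 3.97 to 4.57 FPKM.

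In run 4 hunters, replicate 7 was low for Ptp36E (2.42 FPKM, others 4.54 to 5.31), for bmm (1.6 FPKM, others 2.46 to 2.81) and for LOC105182705 (2.55 FPKM, others 4.03 to 4.54). Replicate 5 was high for LOC105180621 (9.68 FPKM, others up to 2.23) and for Cyp304a1 (4.72 FPKM, others up to 2.67), and replicate 9 was high for LOC112589759 (236 FPKM, others up to 81.9). In run 1 hunters, replicate 3 had 13.4 FPKM of LOC112588763, others up to 1.91.

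At day 20, gamergate replicate 5 was high for Pka-C1 (275 FPKM, others 98.2 to 134) and scalloped (3.21 FPKM, others 1.36 to 1.79), replicate 4 for LOC105180621 (43.1 FPKM, others up to 9.06) and replicate 2 for LOC112588763 (9.78 FPKM, others up to 3.38). Worker replicate 4 of that day had 9.76 FPKM of LOC112588763, others up to 2.27. At day 10, worker replicate 3 had 2.48 FPKM of Cyp304a1, others up to 1.69, and worker replicate 4 had 4.3 FPKM of LOC105182705, others 6.03 to 6.34.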

How the results depend on the processing

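Leaving out each library, the number of chosen genes called stayed at 0 in all 3 caste comparisons, and lay at 6 to 8 for day 20 gamergates against day 10 duelers, 6 to 8 for day 20 against day 10 workers, 4 to 7 for run 1 hunters against day 10 workers and 47 to 54 for pupae. Their median log2 differences lay at -0.20 to 0.09, -0.28 to -0.01, 0.29 to 0.63, -0.07 to 0.19, -0.05 to 0.22, -0.17 to 0.17 and 0.82 to 1.02 in the same order. The rule chose 55 to 170 genes without 1 library of run 4, 9 at a ratio of at least 2 and 150 at a mean of at least 1 FPKM, and 91 after TPM scaling, 77 of them among the 86.

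Array weights gave 1 called gene at day 10, 23 for day 20 gamergates against duelers and 10 for day 20 workers against day 10. TPM scaling gave 10 for the same workers, 11 higher and 0 lower for run 1 hunters, 5 higher and 0 lower for day 20 gamergates, and a pupal median of 1.4. That scaling moved the median of all genes to 0.45 in pupae, 0.24 at day 10, 0.30 between workers and 0.37 in hunters. Voom on recovered reads gave 10 for workers, and no filter gave 1 in run 1, LOC105189919, from a single gamergate. The cause of these shifts was not tested. Numbers called over all genes under alternatives are given here only for TPM scaling and, between day 20 gamergates and duelers, for array weights. The counts under the other alternatives cannot tell a change in the chosen genes from a change over all genes.

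Same-numbered libraries did not deviate together in every pair (correlations of -0.13 to 0.18 at day 10 and 0.10 to 0.45 at day 20), so the numbers were not taken as a pairing. With a replicate block, 0, 0, 0, 6, 7, 5 and 50 genes were called in the order above, and the medians were -0.09, -0.21, 0.40, 0.05, 0.09, -0.03 and 0.95. Of 426 recomputed differences of 22 called gene results, 411 passed the threshold in the same direction, 15 did not pass and 0 reversed. Those 15 concerned LOC105182705, LOC112589730 and LOC105192254. With a single gamergate in run 1, its comparison is the least precise.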
